A study of Mus musculus with 27 samples.

Results

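Epiblastoids are 3-dimensional balls of mouse cells that form when naive embryonic stem cells are embedded in Matrigel and that resemble the early postimplantation epiblast around a central lumen. Here the step from day 2 to day 3 of their culture was followed gene by gene, in the 1 RNA library of each day, 2 of the 19 RNA libraries and of the 27 samples of the study. Of 23604 genes, 11095 were at 1 FPKM or more on either day. Replication-dependent histone genes (43) and other RNAs that carry no poly(A) tail (245) were set apart, which left 10807 genes. For these the log2 ratio of FPKM + 1 on day 3 over day 2 was taken, and a gene was called higher or lower on day 3 when that ratio was at least 1 in size, a fold of 2 in FPKM + 1.

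The study set out to catch a formative state between naive mESCs and primed EpiSCs and to hold it as stable lines, fPSCs. Day 2, day 3 and day 4 Epiblastoids are labelled WT stem cells and were all grown in N2B27 medium with KSR, Activin A and bFgf2. The labels do not name the line, and the study's methods used single cells of CMTI-1 mESCs for Epiblastoids. On either side stand WT mESCs in 2i and LIF, WT EpiLCs grown flat in the Epiblastoid medium, and WT EpiSCs, with 2 libraries each, as well as 10 fPSC libraries, among them those of the lines CMT, 46C, BVSC and ROSAmTmG and of E5.5 and E6.5 epiblasts. By the study's methods the media of both EpiSCs and fPSCs also held the tankyrase inhibitor XAV939, and EpiSCs grew on inactivated mouse fibroblasts.

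Epiblast cells that leave the naive state first pass through a phase in which they answer inductive signals and can still give rise to germ cells, and then some of them enter the primitive streak. Entry into the streak is driven by Wnt, Nodal and Fgf signals, which switch on the T-box factors T and Eomes. In the same window the de novo methyltransferases are known to silence the promoters of germline genes. Histone genes of the large clusters are transcribed in S phase, and their mRNAs end in a stem-loop instead of a poly(A) tail, so their level in a library depends on how the RNA was selected.

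With 1 library per day there is no replicate error for either day and no test, and each ratio compares a pair of libraries. The spread between the 2 replicate libraries of mESCs, EpiLCs and EpiSCs was used as the yardstick. Where a gene holds only a few fragments its FPKM moves in steps of 1 fragment, and by these steps 1 FPKM on a transcript of 2000 bases stood for about 72.6 fragments on day 2 and 26.03 on day 3. The day 2 library was thus 2.79 times as deep as that of day 3, which was the shallowest of the 19.

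The largest difference between the days lay in histone genes, whose mRNAs end in the stem-loop. It is shown for 6 genes as DNA of mm9 in the sense of the mRNA, with the stem-loop core in capitals. They lie at chr13:21924891-21924920, minus strand, chr13:22126989-22127018, minus strand, chr13:23666757-23666786, plus strand, chr13:22128162-22128191, plus strand, chr13:21809957-21809986, plus strand and chr13:21842012-21842041, minus strand. The 3 H2A genes were among the highest on day 3, and the H2B, H3 and H4 genes are given as the ones that were not.
Hist1h2ap: aaaaaaaGGCTCTTTTCAGAGCCatccaca
Hist1h2ah: tcccaaaGGCTCTTTTCAGAGCCacacaca
Hist1h2ad: aaacaaaGGCTCTTTTCAGAGCCatccact
Hist1h2bk: caccaaaGGCTCTTTTAAGAGCCactaaac
Hist1h3h: tttcaaaGGCTCTTTTCAGAGCCacccaaa
Hist1h4k: tacaaaaGGCCCTTTTCAGGGCCacccact

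The promoters of T and Sp5 stand for the genes of the primitive streak that were higher on day 3, and those of Mael and Tex19.1 for the germline genes that were lower. Each is the 250 bases before the annotated start in mm9, at chr17:8627038-8627287, plus strand, chr2:70312730-70312979, plus strand, chr1:168168876-168169125, minus strand and chr11:121007207-121007456, plus strand. In T and Sp5 the capitals mark TCAAAG on either strand, the core that Tcf/Lef factors of the Wnt pathway bind. In Mael and Tex19.1 they mark CG, the dinucleotide that is methylated.
T: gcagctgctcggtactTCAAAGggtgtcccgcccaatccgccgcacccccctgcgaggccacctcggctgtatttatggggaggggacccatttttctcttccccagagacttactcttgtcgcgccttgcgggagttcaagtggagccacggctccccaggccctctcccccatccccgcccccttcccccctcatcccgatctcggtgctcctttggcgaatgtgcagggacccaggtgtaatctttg
Sp5: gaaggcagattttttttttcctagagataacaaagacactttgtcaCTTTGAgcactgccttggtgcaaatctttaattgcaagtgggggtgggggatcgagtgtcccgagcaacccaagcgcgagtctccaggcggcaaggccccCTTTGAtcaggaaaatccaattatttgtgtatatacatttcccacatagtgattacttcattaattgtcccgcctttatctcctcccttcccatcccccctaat
Mael: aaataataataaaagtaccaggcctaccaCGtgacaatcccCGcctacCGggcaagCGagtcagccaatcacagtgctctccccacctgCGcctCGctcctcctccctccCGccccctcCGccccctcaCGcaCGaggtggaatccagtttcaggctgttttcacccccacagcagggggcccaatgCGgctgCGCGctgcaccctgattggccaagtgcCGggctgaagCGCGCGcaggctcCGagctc
Tex19.1: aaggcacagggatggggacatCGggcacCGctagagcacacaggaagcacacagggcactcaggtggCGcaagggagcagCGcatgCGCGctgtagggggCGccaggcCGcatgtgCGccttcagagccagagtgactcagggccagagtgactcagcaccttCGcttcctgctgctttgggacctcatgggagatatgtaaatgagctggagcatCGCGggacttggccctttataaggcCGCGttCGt

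On day 3, 290 of the 10807 genes were higher (2.68%) and 258 were lower (2.39%). With 0.1 added to FPKM in place of 1 these counts were 563 and 458. The median ratio of all genes was 0.11 (5th percentile -0.74, 95th percentile 0.84), and 6522 genes (60.3%) lay above 0. The genes just inside the threshold were AF357425 and Iqsec2, and those just outside it Bola1 (0.999) and Zbtb34 (-0.999). The genes that were higher had a median of 6.12 FPKM on day 2 and 16.3 FPKM on day 3, and 49 of them were under 1 FPKM on day 2. The genes that were lower had a median of 10.6 FPKM on day 2 and 3.47 FPKM on day 3, and 63 of them were under 1 FPKM on day 3.

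**Figure D1:**
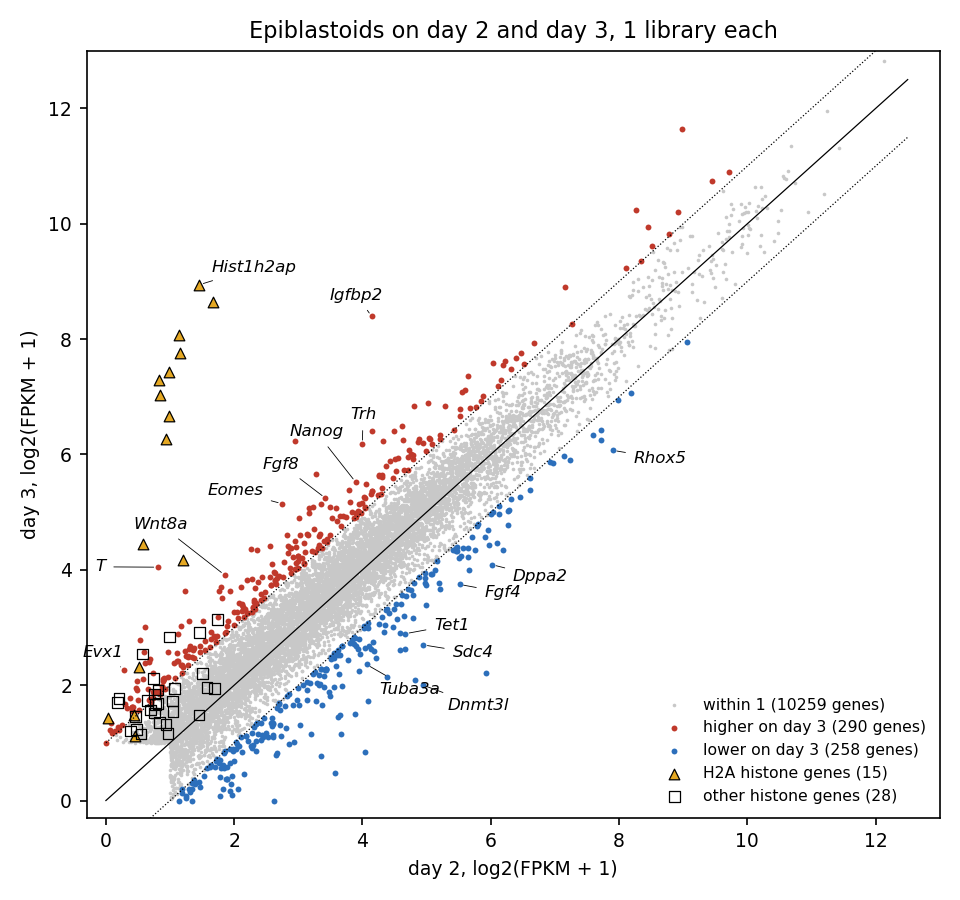
Each point is 1 gene, with log2(FPKM + 1) on day 2 along the x axis and on day 3 along the y axis, 1 library per day. Dotted lines mark a ratio of 1 and -1, red and blue points the 290 genes higher and the 258 genes lower, and 9 of the H2A triangles stand above all other genes of their day 2 level, with Hist1h2ap at 1.74 FPKM on day 2 and 491 FPKM on day 3.

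How the 2 libraries are scaled decides which direction has more genes. As deposited, 52.9% of the genes past the threshold were higher, and when day 3 was brought to the upper quartile of day 2 (a factor of 0.909) there were 202 higher and 336 lower genes, 37.5% higher. The median of all genes then lay at -0.01. List medians over tested genes are therefore read against 0.11, the median of all tested genes, and not against 0. A median over every listed gene is read against 0, the median of all 22167 genes in the table. Those over genes at 1 FPKM on both days are read against 0.113. A ratio of 1 cannot be reached by a gene under 1 FPKM on both days, so counts past the threshold hold for every listed gene. The medians do depend on the filter, since a gene that passed it on 1 day alone had to differ, and the number of such genes is given where it matters.

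Replicate libraries of 1 group differed by as much at some genes. Past the same threshold, replicate 2 of the EpiLCs was higher than replicate 1 at 342 of 10678 genes (3.2%) and lower at 114 (1.07%). The mESC pair gave 154 (1.41%) and 210 (1.93%) of 10893 genes and the EpiSC pair 65 (0.593%) and 94 (0.858%) of 10955. In both directions together the days differed at more genes than any of the 3 pairs did. Gene by gene, 260 of the higher genes (2.41% of all) and 238 of the lower genes (2.2%) differed by more between the days than between the replicates of any of the 3 groups.

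The day 3 minus day 2 ratios ran in part along the same axis as the EpiLC pair. Across 10807 genes, which are not independent replicates, Spearman's rho was 0.33 with the EpiLC pair, 0.10 with the mESC pair and -0.02 with the EpiSC pair. In the EpiLC pair short transcripts were higher in replicate 2, and with genes split by length into 5 bins the median went from 0.39 for the shortest to -0.18 for the longest. Between the days it went from 0.18 to 0.04. Among the gene lists with 5 tested genes or more, the median of the EpiLC pair was 0.3 or more in size for ribosomal proteins (0.78), oxidative phosphorylation (0.64), glycolysis (0.35), hypoxia targets (0.34) and actin and contractile genes (0.35). It was as far below 0 for DNA methyltransferase and TET genes (-0.51), the streak (-0.49), Notch (-0.37), Nodal (-0.33), Wnt (-0.32) and basement membrane genes (-0.30). The part of this axis in the day 3 minus day 2 ratios was not tested.

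T-box factors and several ligands of the primitive streak were higher on day 3. Of 22 genes listed for the streak and early mesoderm, 7 were higher and none was lower, against 1.31% higher and 1.16% lower of the 22167 genes in the table. All 7 differed by more than any replicate pair, as did 260 of all 290 higher genes. A gene near 0 FPKM in both libraries of a pair can differ little there on this scale. Of the list, 9 genes were at 1 FPKM on either day, and T, Evx1 and Sp5 were so through day 3 alone. The median ratio was 0.14 over all 22 genes and 1.40 over the 6 that were at 1 FPKM on both days.

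T, the founding T-box factor of mesoderm, was at 0.75 FPKM on day 2 and 15.5 FPKM on day 3. EpiLCs had 0.17 and 0.26 FPKM and day 4 had 38.0 FPKM, so T was above both EpiLC libraries by day 2 and went on upwards after day 3. Its ratio between day 2 and day 3 was 3.24. Eomes, which specifies mesendoderm, was at 5.72 and 34.4 FPKM (ratio 2.40), against 1.80 and 2.09 FPKM in EpiLCs and 145 FPKM on day 4. Both genes belonged to the 7 whose ratio exceeded every replicate difference.

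Of the ligands in the list, Fgf8, which cells need to leave the streak, was at 9.72 FPKM on day 2 and 36.9 FPKM on day 3 (ratio 1.82) and at 201 FPKM on day 4. Wnt3, the ligand that starts the streak, was at 5.15 and 14.6 FPKM (ratio 1.34). Nodal, which keeps the epiblast and patterns the streak, was at 42.3 and 53.9 FPKM, a ratio of 0.34. The activin antagonist Fst was at 8.52 and 25.03 FPKM (ratio 1.45), but at 13.3 FPKM on day 4. Fst was thus the streak gene whose highest level of the 3 days was on day 3, along with Nodal, which was at 31.5 FPKM on day 4.

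The remaining transcription factors of the list differed in timing. Evx1, a homeobox gene of the posterior streak, was at 0.21 FPKM on day 2 and 3.83 FPKM on day 3 (ratio 1.99), and Sp5, a zinc finger target of Wnt, at 0.95 and 4.97 FPKM (ratio 1.61). Mixl1, a homeobox gene of mesendoderm, was at 1.19 and 1.65 FPKM and reached 254 FPKM on day 4. The other 13 genes of the list were under 1 FPKM on both days. Among them Cer1, Lhx1, Gsc, Mesp1 and Foxa2, which mark later streak derivatives, were at 0.56 FPKM or less on day 3 and at 52.8 to 295 FPKM on day 4.

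**Figure D2:**
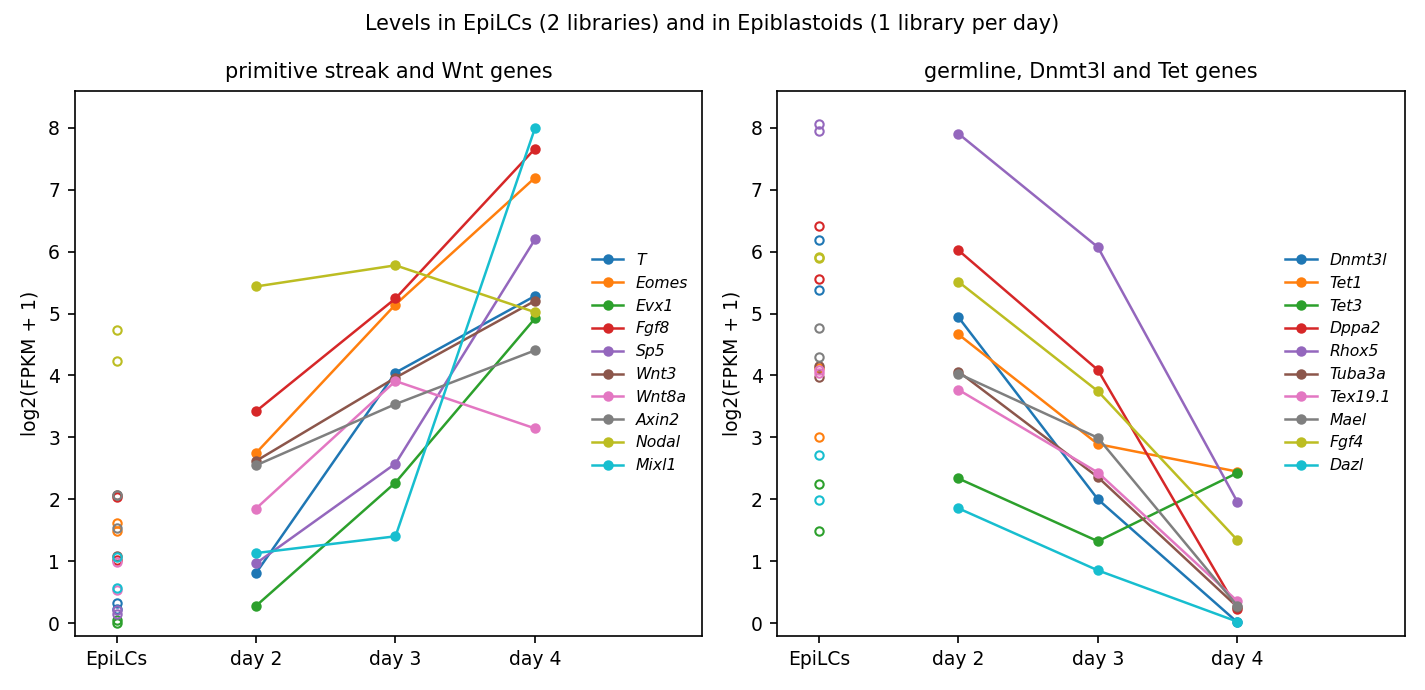
Levels as log2(FPKM + 1) of genes of the primitive streak and Wnt pathway (left) and of germline, Dnmt3l and Tet genes with Fgf4 (right). Open circles are the 2 EpiLC libraries, filled points joined by lines the 1 library of each Epiblastoid day; T, Eomes, Evx1 and Fgf8 climb on both intervals, Mixl1 mostly after day 3, and Dnmt3l goes from 29.7 FPKM on day 2 to 3.00 FPKM on day 3.

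In the Wnt pathway the higher genes were ligands and targets. Of 32 listed genes 5 were higher and 1 was lower, against 1.31% and 1.16% of all genes in the table. This list shares genes with the streak list, T (ratio 3.24) among them, so its count is not independent of that of the streak. Of the 19 tested, 3 passed through day 3 alone, and the median was 0.064 over all 32 genes. Wnt8a, a ligand of the posterior epiblast, was at 2.61 and 14.03 FPKM (ratio 2.06), and at 7.85 FPKM on day 4. Wnt5b, a ligand of the non-canonical branch, was at 2.13 and 6.58 FPKM (ratio 1.28). Axin2, the feedback inhibitor that reports Wnt activity, was at 4.85 and 10.6 FPKM, a ratio of 0.99 just under the threshold. Lef1, a nuclear partner of beta-catenin, was the gene that was lower, at 52.9 and 19.2 FPKM (ratio -1.41). EpiLCs had 47.7 and 23.7 FPKM of Lef1, so replicates alone spanned much of that range. Ctnnb1, beta-catenin itself, was at 137 and 170 FPKM.

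TCAAAG was sought on either strand in the window from 250 bases before to 50 after the start. It stood in 4 of the 9 tested streak promoters (T, Mixl1, Sp5 and Fst), and in 6 of 18 Wnt promoters tested. T is in both lists, so these shares are not independent. Of the promoters of the 13 streak genes under 1 FPKM on both days, 3 (23.1%) held TCAAAG. The motif was in 12.0% of all tested promoters and in 15.1% of 22035 protein-coding promoters. Of the genes higher on day 3, 13.9% held it and of the genes lower, 10.04%. Over all higher genes the share was thus near that of all promoters.

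Of the other signalling lists, Nodal and TGF-beta had a median of -0.00 over 22 genes, with Fst as its 1 higher gene. Fgf ligands and receptors had a median of 0.11 over 9 genes, where Fgf8 was higher and Fgf4 lower. BMP and Id genes had a median of 0.11 over 12 genes. There Id1, an inhibitor of differentiation that BMP induces, was at 8.65 and 2.30 FPKM (ratio -1.55) and at 49.2 FPKM on day 4. Notch had a median of 0.08 over 12 genes, and its targets Nrarp (1.39 and 4.71 FPKM) and its nuclear factor Rbpj (2.68 and 7.11 FPKM) were higher, though the 2 EpiLC libraries of Rbpj were at 8.70 and 1.97 FPKM. Nrarp, Id1, Wnt5b and Axin2 lie outside the rule by which genes were named and were chosen after their values were seen.

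Pluripotency genes did not move as one group. Nanog, a core factor of the naive and the posterior epiblast, was at 13.9 FPKM on day 2 and 44.9 FPKM on day 3 (ratio 1.62), against 8.599 and 7.998 FPKM in EpiLCs and 284 and 345 FPKM in mESCs. Pou5f1, the Oct4 gene, was at 552 and 879 FPKM (ratio 0.67) and Sox2 at 26.3 and 16.4 FPKM (ratio -0.65). Day 4 had 34.8 FPKM of Nanog, 429 of Pou5f1 and 2.73 of Sox2. Nanog exceeded every replicate difference, the largest of which was 0.30.

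Of 18 genes of the naive state 2 were lower, and Nanog was the 1 higher gene, against 1.16% and 1.31% of all genes in the table. Of the 8 tested, 3 passed through day 2 alone, and the median was -0.20 over all 18 genes. Fgf4, an Oct4 and Sox2 target, was at 44.7 and 12.4 FPKM (ratio -1.77) and was at 58.6 and 58.9 FPKM in EpiLCs and at 1.54 FPKM on day 4. Klf5, a Kruppel-like factor of the naive circuit, was at 3.06 and 0.86 FPKM. Esrrb, Klf2, Klf4, Tfcp2l1 and Prdm14 were under 1 FPKM on both days and at 25.3 to 262 FPKM in mESCs. A higher level on day 3 was thus seen for Nanog and not for these naive factors.

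The formative list of 22 genes had a median of -0.07, with Fgf8 higher and Lef1 and Etv5 lower, and the 17 output genes of Erk signalling tested had a median of 0.22. Etv5, an Ets factor downstream of Fgf and Erk, was at 209 FPKM on day 2 and 84.7 FPKM on day 3 (ratio -1.29). Pou3f1, the Oct6 gene of the formative epiblast, was at 85.6 and 43.5 FPKM (ratio -0.96), and at 8.29 FPKM on day 4. Otx2 (62.8 and 64.2 FPKM) and Fgf5 (63.4 and 78.0 FPKM), which mark the postimplantation epiblast, were at close to the same level on both days. Of the 14 core genes the median was 0.07, and Dppa2 was the lower gene.

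Markers checked the label of the cells. All 8 epiblast markers were tested, and none passed the threshold in either direction. Of other cell types, 1 of 9 visceral endoderm markers, 2 of 7 trophoblast, 2 of 8 fibroblast and 0 of 4 hematopoietic markers in the table reached 1 FPKM. The visceral endoderm marker did so through day 3 alone, with a ratio of 0.69. The 2 trophoblast markers had ratios of -0.23 and 0.37 and the 2 fibroblast markers -0.39 and 0.59. Among the markers that did not reach 1 FPKM, Afp and Ttr of the visceral endoderm, Elf5 of the trophoblast, and Lum and Postn of fibroblasts were at 0.023 FPKM or less on both days. Of the 14 endoderm genes 2 were tested, Trh among them, and of 25 Hox genes none reached 1 FPKM, with 0.143 FPKM as the highest. In bulk RNA a change in the number of cells that hold a transcript and a change of its amount per cell cannot be told apart.

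Dnmt3l, Tet1 and Tet3 were lower on day 3. Of 11 genes listed for DNA methylation and demethylation 3 were lower and none was higher, against 1.16% and 1.31% of all genes in the table. The 9 tested were at 1 FPKM on both days and had a median of -0.59. In the EpiLC pair the median of the same genes was nearly as large, at -0.51. Dnmt3l, the cofactor without catalytic activity that stimulates Dnmt3a and Dnmt3b, was at 29.7 FPKM on day 2, 3.00 FPKM on day 3 and 0.01 FPKM on day 4. EpiLCs had 71.6 and 40.6 FPKM, and the ratio between the days was -2.94, above the largest replicate difference of 1.83.

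Dnmt3b, the main de novo enzyme of the epiblast, was at 724 and 481 FPKM (ratio -0.59), and Dnmt3a at 56.0 and 52.4 FPKM. The maintenance enzyme Dnmt1 was at 56.8 and 56.2 FPKM and its partner Uhrf1 at 226 and 128 FPKM (ratio -0.81). Dnmt1 and Dnmt3a thus differed little, and Dnmt3l most. Of the dioxygenases that oxidize methylcytosine, Tet1 was at 24.3 and 6.42 FPKM (ratio -1.77) and Tet3 at 4.05 and 1.504 FPKM (ratio -1.01). For Tet1 the EpiLC libraries were at 16.3 and 7.08 FPKM.

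Some of the germline genes that were on in EpiLCs were lower on day 3, and on day 4 nearly all were close to 0. Of 21 listed genes 6 were lower and none was higher, against 1.16% and 1.31% of all genes in the table. Of the 19 tested, 8 passed through day 2 alone. The median was -0.36 over all 21 genes and -0.30 over the 11 at 1 FPKM on both days. Tuba3a, a testis tubulin, was at 15.7 and 4.13 FPKM (ratio -1.70). Tex19.1, which restrains retrotransposons in germ cells, was at 12.6 and 4.40 FPKM (ratio -1.34), and Mael, a factor of the piRNA pathway, at 15.3 and 6.97 FPKM (ratio -1.03). These 3 genes were at 14.8 to 26.3 FPKM in EpiLCs and at 0.20 to 0.28 FPKM on day 4.

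Dazl, the germ cell RNA-binding protein, was at 2.62 and 0.81 FPKM (ratio -1.002), and Tuba3b and Rhox13 also passed the threshold. Rhox13 was the gene of the 6 that did not exceed every replicate difference. Other germline genes kept their level until day 3: Ddx4, the Vasa helicase, was at 4.21 and 4.31 FPKM, Sycp3 of the synaptonemal complex at 2.89 and 3.33 FPKM and Zcwpw1, a reader of meiotic histone marks, at 13.4 and 14.02 FPKM. On day 4 they were at 0.33, 0.11 and 3.17 FPKM. Dppa2, which primes genes of the early embryo, was at 64.0 and 16.02 FPKM (ratio -1.93) and at 0.17 FPKM on day 4. Rhox5, an X-linked homeobox gene of the germline, was at 239 and 66.3 FPKM (ratio -1.83).

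Of the genes the study followed for germ cell competence and transition, Prdm1, the Blimp1 gene, was at 0.24 and 0.06 FPKM and Dppa3, the Stella gene, at 1.42 and 0.22 FPKM. Cdh1, E-cadherin, was at 243 and 156 FPKM (ratio -0.64), and Cdh2, N-cadherin, at 0.82 and 1.46 FPKM. Snai1 was at 0.75 and 2.41 FPKM (ratio 0.96), Twist1 at 0.88 and 3.31 FPKM (ratio 1.199) and Zeb2 at 0.01 and 0.13 FPKM. Snai1, Twist1 and Zeb2 are transcription factors that drive the epithelial to mesenchymal transition. Of 10 mesenchymal genes tested 3 passed through day 3 alone, and the median over all 14 listed was -0.06. On day 4 Cdh2 and Snai1 were at 58.8 and 32.2 FPKM, and Twist1 and Zeb2 at 3.08 and 0.95 FPKM.

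Epithelial structure genes were near the median of all genes. The 25 junction genes had a median of 0.24 with no gene past the threshold, and the 26 genes of apical polarity and the lumen 0.24, with Mpp5, the Pals1 scaffold of the Crumbs complex, higher (1.43 and 4.61 FPKM). Ezr, the apical linker ezrin by which the lumen was stained, was at 70.5 and 82.5 FPKM. Basement membrane and integrin genes (0.01 over 21), Hippo and Yap targets (0.03 over 17) and Polycomb genes (0.07 over 20) held no gene past the threshold. Mpp5 was chosen after its value was seen.

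**Figure D3:**
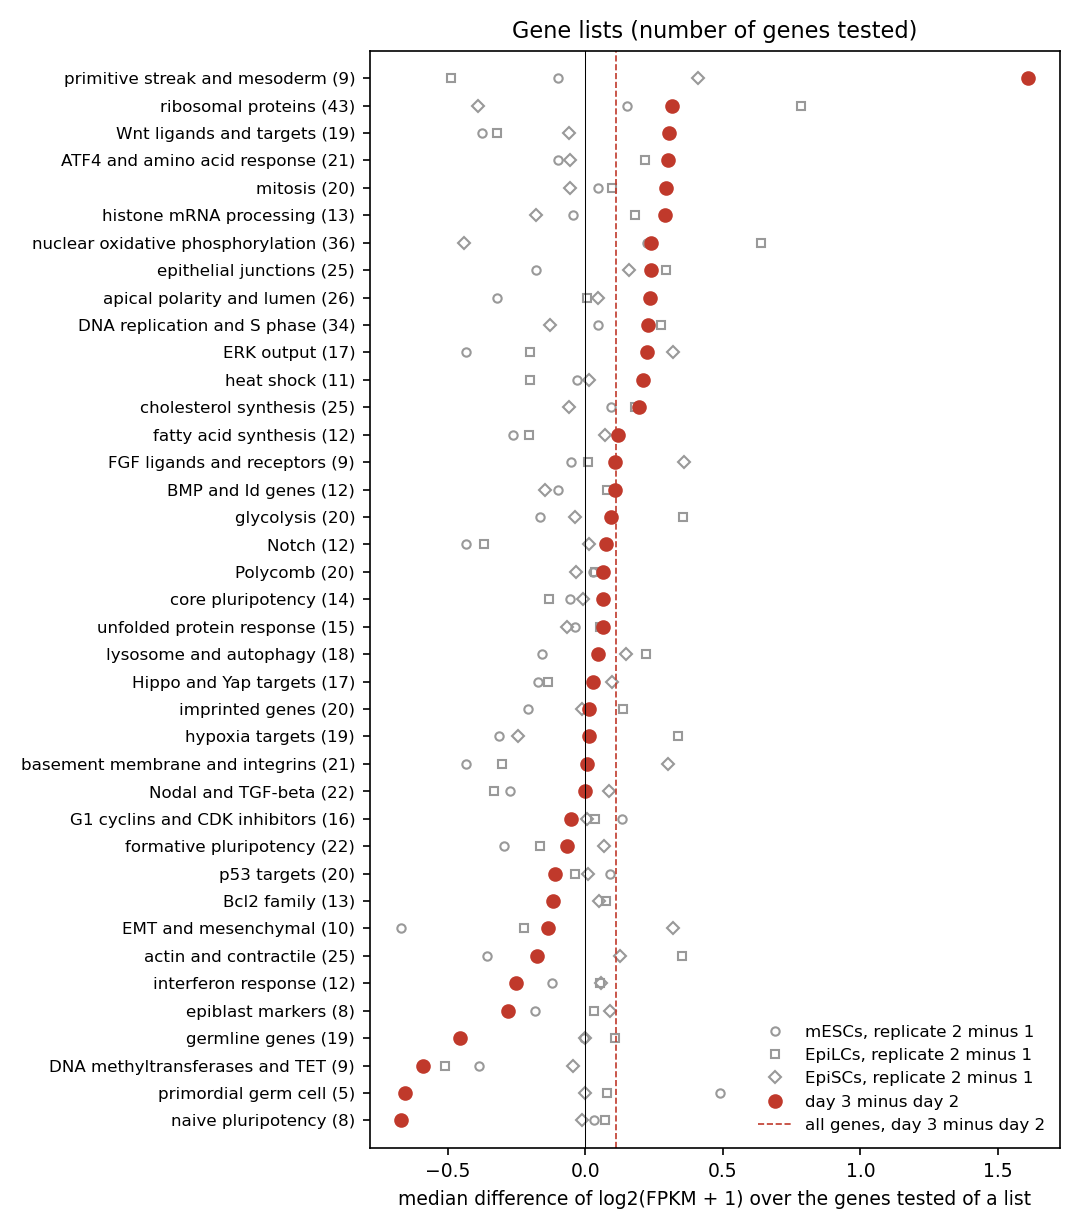
Filled points are the median day 3 minus day 2 difference of log2(FPKM + 1) over the tested genes of each list, with the number tested in brackets, and open symbols the same median between the 2 replicates of mESCs, EpiLCs and EpiSCs. The streak list is at 1.61 over 9 genes, 3 of which passed the filter through day 3 alone, most lists lie within 0.3 of the dashed line for all genes at 0.11, and for the ribosomal proteins the EpiLC pair (0.78) exceeds the difference between the days (0.31).

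Growth and metabolism lists were close to all genes. DNA replication and S phase had a median of 0.23 over 34 genes, in which Pcna, the sliding clamp of replication, was the 1 higher gene (101.2 and 242 FPKM), and mitosis had 0.29 over 20. Oxidative phosphorylation had 0.24 over 36 genes, glycolysis 0.09 over 20, and cholesterol synthesis 0.20 over 25, where the EpiLC pair gave 0.64, 0.35 and 0.18. Ribosomal proteins had 0.31 over 43 genes, with 4 higher, and 0.78 in the EpiLC pair. Of these Rps14 was at 306 and 1212 FPKM (ratio 1.98) but at 485 FPKM on day 4 and 1643 and 2050 FPKM in mESCs. Rps7, at 365 and 782 FPKM, no longer reached the threshold (0.96) when day 3 was brought to the upper quartile of day 2.

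Single genes passed the threshold in other lists. Of 20 imprinted genes (median 0.01), Meg3, the maternal long RNA of the Dlk1 domain, was at 23.4 and 88.8 FPKM (ratio 1.88) and at 23.1 FPKM on day 4. Peg10, a paternal gene derived from a retrotransposon, was at 11.4 and 3.55 FPKM (ratio -1.45), but its EpiLC replicates were at 31.8 and 11.7 FPKM. Meg3 exceeded every replicate difference, the largest of which was 0.48. Of 13 primordial germ cell genes 5 were tested, 1 of them through day 2 alone, and there Ifitm1, a membrane protein of early germ cells, was at 11.6 and 1.79 FPKM (ratio -2.17) and at 84.5 FPKM on day 4.

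Lists tied to stress and survival lay on both sides of the median of all genes. The p53 targets had a median of -0.11 over 20 genes, with Zmat3, an RNA-binding p53 target, lower (24.6 and 10.6 FPKM), and the Bcl2 family -0.12 over 13, with the cell death activator Bcl2l11, the Bim gene, lower (14.5 and 5.93 FPKM). Of 17 interferon response genes (median 0.002, with 2 of the 12 tested through day 2 alone) Oasl2 and the immunoproteasome subunit Psmb8 were lower, at 2.72 and 0.29 FPKM and at 4.66 and 1.241 FPKM, and were chosen after their values were seen. The ATF4 and amino acid response had 0.30 over 21 genes, in which Psat1 of serine synthesis was at 137 and 246 FPKM. Actin and contractile genes had -0.17 over 25. Myl6, a myosin light chain, was higher there (49.2 and 163 FPKM), with EpiLC replicates of 98.0 and 247 FPKM.

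Of the genes named by the size of their ratio, at a mean of 10 FPKM or more over the 2 days, Igfbp2 had the largest. It codes for a secreted binding protein of insulin-like growth factors and was at 16.7 FPKM on day 2, 335 FPKM on day 3 and 15.8 FPKM on day 4. Its replicates were far apart as well, with 47.2 and 373 FPKM in mESCs and 165 and 26.2 FPKM in EpiSCs. Trh, the gene of thyrotropin-releasing hormone, was at 15.0 and 71.4 FPKM and at 457 FPKM on day 4. Both neurofilament genes Nefl (16.8 and 83.4 FPKM) and Nefm (7.04 and 28.9 FPKM) were higher on day 3, and both were lower again on day 4, at 11.3 and 3.66 FPKM. Nup62, a nuclear pore protein, and Dad1, a subunit of the oligosaccharyltransferase, were at 21.5 and 18.95 FPKM on day 2 and at 84.2 and 74.2 FPKM on day 3, with replicate differences of at most 0.35 and 0.18. Dad1 was at 55.9 to 161 FPKM in all libraries other than day 2, so for it day 2 was the library apart. Apart from day 2, Nup62 was at 20.4 FPKM in 46C fPSCs and at 47.5 to 117 FPKM in the rest. Cdca7l (3.82 and 19.6 FPKM), the splicing factor gene Snrpc (26.9 and 114 FPKM), Tbp, the TATA-binding protein (4.13 and 19.4 FPKM), and 3110082I17Rik (8.004 and 32.8 FPKM) complete the largest increases. Replicates of these 4 differed by up to 1.77, 1.47, 1.10 and 0.64.

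Some of the largest increases sit on unusual entries. Sarnp was at 6.72 FPKM on day 2 and 74.1 FPKM on day 3, and the 18 libraries other than day 2 ran from 22.5 to 99.3 FPKM, so day 2 was the library apart. Cbx3-ps6 is a pseudogene entry, whose reads cannot be separated from those of its parent gene, and Yam1 had no match in the annotation.

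The largest decrease was that of Hmgn2-ps1, a pseudogene entry, at 59.7 and 3.61 FPKM (ratio -3.72), whose EpiLC replicates were at 82.1 and 3.27 FPKM, a larger difference (4.28). Of the others, Sdc4, the heparan sulfate proteoglycan syndecan-4, was at 29.9 FPKM on day 2 and 5.49 FPKM on day 3 (ratio -2.25), and Tapbp, which loads peptides on MHC class I, at 27.2 and 3.26 FPKM (ratio -2.73). Foxn3, a forkhead repressor, was at 19.9 and 3.43 FPKM, and Gstm1, a glutathione transferase, at 49.3 and 15.0 FPKM. Dtnb (24.4 and 5.20 FPKM), Gpx2, a glutathione peroxidase (22.9 and 5.10 FPKM), Msi2, an RNA-binding protein (17.5 and 4.56 FPKM), and Cdk5rap2, a centrosomal protein (23.1 and 6.53 FPKM), were lower as well. Replicates differed by up to 0.96, 0.89, 1.17 and 1.71, so for Cdk5rap2 (ratio -1.68) by as much as the days. Rest, the repressor of neuronal genes, was at 71.9 and 19.3 FPKM, and its EpiLC replicates were at 65.6 and 25.8 FPKM. Rest lies among the genes whose replicates alone spanned a ratio above 1. Of the 290 higher genes 66 (22.8%) and of the 258 lower genes 41 (15.9%) did so in at least 1 pair, against 7.40% of all tested genes.

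The histone genes of the clusters, held apart above, formed the largest difference between the libraries. Their share of all FPKM went from 0.0127% on day 2 to 0.550% on day 3, and nearly all of it was H2A, a core histone of the nucleosome. Of 69 listed genes 24 were higher and none was lower, against 1.31% and 1.16% of the 22167 genes not set apart. Of the 43 tested, 29 passed through day 3 alone. Over all 69 genes 64 had a ratio above 0 and 3 below 0. The median ratio was 3.87 over all 19 H2A genes, and 0.38, 0.78, 0.44 and 0.25 over all genes of H2B, H3, H4 and H1.

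Hist1h2ap was at 1.74 FPKM on day 2, 491 FPKM on day 3 and 1.67 FPKM on day 4 (ratio 7.49 between day 2 and day 3). Hist1h2aj, a pseudogene in the annotation used, was at 2.19 and 401 FPKM, Hist1h2an at 1.2003 and 268 FPKM, Hist1h2ah at 1.23 and 215 FPKM and Hist1h2ad at 0.98 and 172 FPKM. In all 5 genes day 3 alone of the 3 days was high. On day 3, 9 H2A genes were at 50 FPKM or more, and 14 of the 19 were higher.

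Across the libraries, the summed FPKM of the 19 H2A genes was 14.2 on day 2 and 2057 on day 3. It was 1939 and 1598 in the 2 mESC libraries and between 9.86 and 35.8 in the 16 others, day 2 and day 4 included. Day 3 and mESCs thus formed 1 class and all other libraries another, with no value in between. H2B summed to 12.0 and 31.0 FPKM, H3 to 9.27 and 29.9, H4 to 7.15 and 16.8 and H1 to 1.94 and 7.40 on day 2 and day 3. In replicate 1 of the mESCs these 4 classes summed to 23.3, 15.9, 11.9 and 5.87 FPKM.

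**Figure D4:**
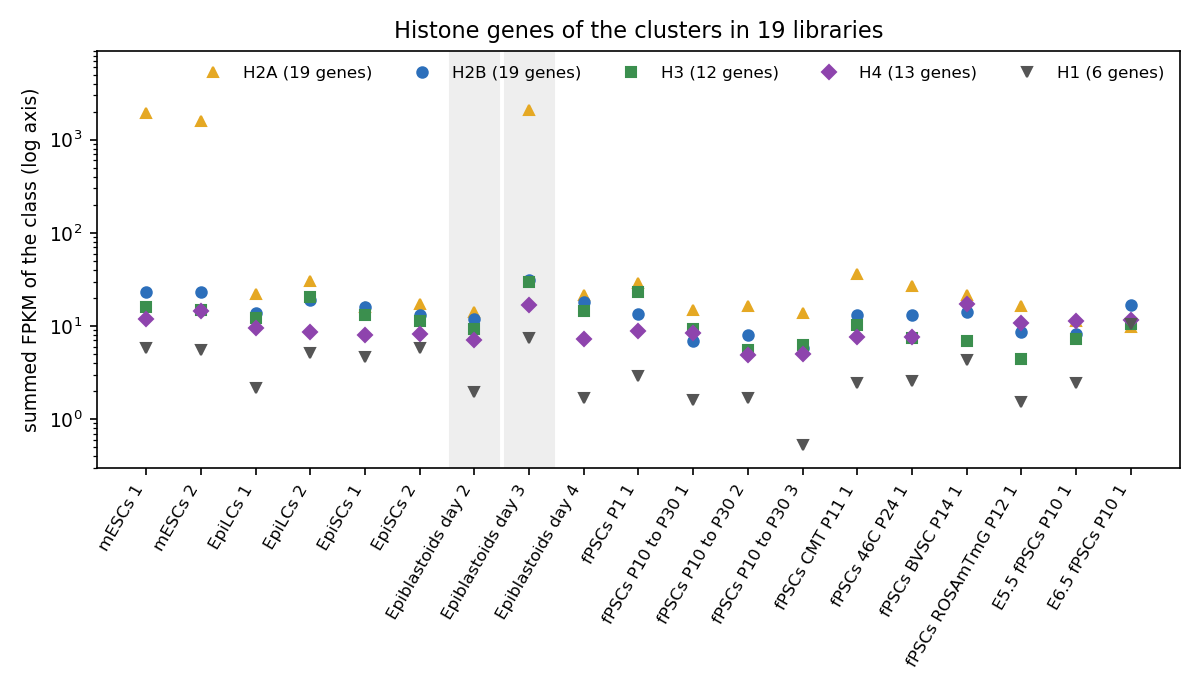
Summed FPKM of the genes of each histone class, on a log axis, in each of the 19 RNA libraries, with day 2 and day 3 Epiblastoids shaded. H2A stands at 1598 to 2057 FPKM in both mESC libraries and on day 3 and at 9.86 to 35.8 FPKM in the other 16 libraries, while the remaining classes differ far less between libraries.

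The H2A genes are near copies of one another. The coding sequences of Hist1h2ap and Hist1h2ao, of 390 bases, were identical, and Hist1h2ad and Hist1h2ag differed from them at 3 positions, Hist1h2an, Hist1h2ai and Hist1h2ac at 5, and Hist1h2ak at 11. Reads of 1 gene can therefore be assigned to another, and only the class is read as a quantity. The stem-loop core was found within 250 bases of the annotated end in 48 of the 69 genes, in 14 of 19 for H2A, 12 of 19 for H2B, 7 of 12 for H3, 11 of 13 for H4 and 4 of 6 for H1. Of the 9 H2A genes at 50 FPKM or more, 6 held it. A core outside that window would be missed, and the part of the stem-loop in the H2A values was not tested.

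Levels of the factors that make histone mRNAs differed little. Slbp, the protein that binds the stem-loop, was at 71.3 and 78.3 FPKM, and the 13 genes of histone mRNA processing had a median of 0.29 and none past the threshold. The naive factor Esrrb was at 0.03 FPKM on day 3 against 262 and 121 FPKM in mESCs, and Zfp42 at 7.498 FPKM against 347 and 384 FPKM. How the RNA was selected is not given in the sources used here beyond a total RNA protocol, and neither its part nor that of RNA from mESCs in the H2A values was tested.

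Other RNAs without a poly(A) tail gave a mixed picture. Of 245 tested 31 were higher and 16 lower on day 3, with a median of 0.24. Of the 10807 genes not set apart, 2.68% were higher and 2.39% lower. Some of the 31 rested on few fragments, such as Mir341 with about 1.62 on day 3. Rn7s1, an entry of the signal recognition particle RNA, was at 4.61 and 300 FPKM, and Rn7s2 at 6.74 and 258 FPKM. On day 4 they were at 279 and 341 FPKM, where H2A was low. Rn7sk, the RNA that holds P-TEFb inactive, was at 2.70 and 48.0 FPKM and at 139 FPKM on day 4. The ribosomal RNA entry Rn18s-rs5 was at 270 and 1355 FPKM and at 176 FPKM on day 4. The 7S RNAs and H2A therefore parted on day 4, and not there alone. In fPSCs of P10 to P30 Rn7s1 was at 103 to 134 FPKM and the H2A sum at 13.9 to 16.4 FPKM. In fPSCs of E5.5 and E6.5 epiblasts Rn7s1 was at 194 and 178 FPKM and the H2A sum at 11.3 and 9.86 FPKM. In the other fPSC libraries Rn7s1 was at 1.08 to 3.46 FPKM.

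The genes that differed between the days were then looked up in comparisons that use neither day. These were called higher or lower where the libraries of the 2 groups did not overlap and lay at least 1 apart on the log2 scale. Against mESCs, EpiLCs were higher at 6.90% and lower at 21.4% of the 290 genes higher on day 3, against 9.98% and 11.1% of all tested genes. Of the 258 genes lower on day 3, EpiLCs were higher at 20.54% and lower at 24.03%. Of the genes higher on day 3, 62 were thus above both EpiLC libraries in both mESC libraries.

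Groups later in culture than EpiLCs were set against the EpiLCs in the same way. The 3 fPSC libraries of P10 to P30 were lower than both EpiLC libraries at 93 of the 258 genes (36.0%) against 7.47% of all tested genes, and higher at 15.2% of the 290 genes against 4.36%. On day 4, in 1 library, 93 of the 258 genes (36.0%) were below both EpiLC libraries against 8.27% of all, and 56 of the 290 (19.3%) above them against 8.53%. In EpiSCs against EpiLCs the shares were 32.2% lower for the 258 genes (13.3% of all) and 17.6% higher for the 290 genes (13.5% of all). These last 3 comparisons share the EpiLC libraries.

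Chromatin was measured in fPSCs of P10, not in Epiblastoids, and serves here as the state in which the lines of the study settled. Mean DNA methylation within 1000 bases of the start site was 50% or more at 85 of 239 promoters of genes lower on day 3 (35.6%). It was so at 18 of 238 promoters of genes higher (7.56%) and at 1046 of 9612 promoters tested (10.9%). The medians were 25.8%, 16.6% and 18.7%. For H3K4me3, the mark of active starts, the medians were 3.49, 5.18 and 4.92 RPKM, and for H3K27me3, the Polycomb mark, 0.367, 0.183 and 0.184 RPKM.

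**Figure D5:**
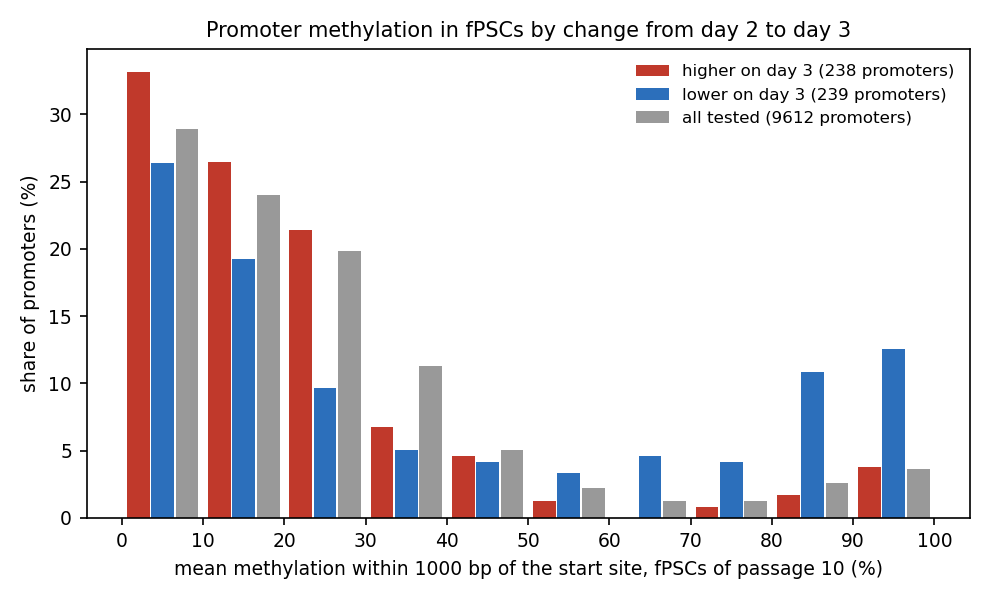
Share of promoters, in percent, by mean methylation within 1000 bases of the start site in fPSCs of passage 10, in steps of 10%, for the genes higher (red) and lower (blue) on day 3 and for all tested genes (gray). Between 90% and 100% methylation lie 12.6% of the promoters of lower genes and 3.78% of those of higher genes.

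Promoters of the tested germline and the tested streak genes lay at opposite ends of the methylation scale. The 19 germline promoters had a median methylation of 92.3%, and 17 were at 50% or more, with Mael at 96.6%, Tex19.1 at 94.9% and Tuba3a at 96.4%. Zcwpw1 and Stag3, whose ratios were 0.06 and -0.12, were the 2 exceptions, at 37.4% and 32.5%. Ddx4 and Sycp3, which also kept their level until day 3, were methylated, at 93.9% and 92.4%. Among other genes lower on day 3, Dnmt3l (97.7%), Tet1 (97.0%) and Dppa2 (83.4%) were methylated, while Tet3 was at 6.0% and Fgf4 at 8.47%, and the promoter of Trh, which was higher, was at 79.7%. Over the 9 tested genes of DNA methylation and demethylation the median was 17.5%, near the 18.7% of all genes, and 2 were at 50% or more. The 9 streak promoters had a median methylation of 2.26%, H3K4me3 of 5.27 RPKM and H3K27me3 of 1.197 RPKM, against 0.184 RPKM for all genes. T was at 2.26% and Eomes at 0.75% methylation, with 1.84 and 1.197 RPKM of H3K27me3. Of the 13 streak genes under 1 FPKM on both days, 7 had more H3K27me3 than H3K4me3, and 0 of the 9 tested did. The promoters of those 13 genes had a median methylation of 16.8%, and 4 of them (30.8%) were at 50% or more.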

How the data were processed

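RNA libraries of 19 samples were measured. Per the labels and the study's methods, reads were cut with cutadapt 1.11 and placed by TopHat2 2.1.1 on mouse transcripts of mm9, and the authors deposited FPKM from Cufflinks 2.1.1, scaled for library size and transcript length. Counts were not used here, and about 30% of low values came out as whole fragments within 0.1, so none were recovered. Of 23608 entries 4 were left out for repeated names. Ratios are of log2(FPKM + 1), which understates changes of low genes, at 1 FPKM or more on either day, and were computed with pandas 2.3.3 and scipy 1.17.1. The threshold is 1 on the log2 scale. With 1 library per day no test was made, and the computation was tested on simulated data.

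Histone genes (Hist1 to Hist4) and RNAs without a poly(A) tail (small nuclear, nucleolar, 7S, ribosomal and micro RNA entries) were set apart by symbol. Members and the 47 gene lists were chosen with earlier results of these data known. Genes were named by size (15 in each direction, at a mean of 10 FPKM), up to 4 per list at 5 FPKM, those the study follows, and the 5 highest histone genes. All tested members of the streak list are given, and other genes outside this rule were chosen after their values were seen. Positions and lengths come from the mm9 annotation, where 9746 of the 10807 genes matched by symbol, with pysam 0.24.0 for sequences.

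For fPSCs of P10 the authors deposited RPKM of H3K4me3 and H3K27me3 in windows of 100 bases and the methylated fraction, from 2 samples each. How the 2 replicates were joined is not given in the sources used here. Windows within 1000 bases of a start were averaged, and fractions are printed as percent. Single-cell files were not used here. Alternatives were a pseudocount of 0.1, no filter or 5 FPKM, 2 rescalings of day 3, genes beyond the largest replicate difference and a promoter of 2500 bases. Adjustment by transcript length, the day 4 comparison and list values over every listed gene or over genes at 1 FPKM on both days were added after seeing the data.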

Additional observations from a re-analysis of the deposited data

How the results depend on the processing

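No paired analysis was possible because each day has 1 library and the labels give no shared replicate number. With 1 library per day neither could be left out. With a pseudocount of 0.1 there were 563 higher and 458 lower genes, and the medians were 6.55 for H2A, -0.98 for naive and -0.91 for germline genes. Without a filter the medians moved towards 0, with H2A at 3.87, streak 0.14, Wnt 0.064, naive -0.20, germline -0.36, DNA methyltransferases and TET -0.20 and endoderm 0.00 in place of 1.00, and 0 lists of 5 or more genes lay 0.5 or more from all genes. Genes at or near 0 on both days enter there. At 5 FPKM, 14 histone genes were higher, H2A was at 6.45, naive genes at -0.30, germline genes at -1.19 and 2-cell-like genes at 0.23 in place of -1.04, from 3 genes or fewer, and 3 lists lay 0.5 or more away. When day 3 was scaled to the upper quartile or the summed FPKM of day 2, naive genes were at -0.76, and after adjustment by transcript length (200 higher and 348 lower genes, 36.5% higher) at -0.83. With promoters of 2500 bases, median methylation was 46.4% for higher, 52.4% for lower and 49.5% for all genes, and H3K4me3 of all genes 3.05 RPKM. Of 183 named genes, 62 past the threshold, only Rps7 came under it with either rescaling and none reversed. The cause of these differences was not tested. The depth of day 3, by estimate under that of day 2, limits genes near 1 FPKM.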
